A study of Homo sapiens with 414 samples.

Results

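Genes that build and run the DNA replication machinery were followed in single LNCaP cells after an siRNA against SULT2B1. The 47 genes were chosen by name, with no measured value in the rule, though earlier results of these data were known when the list was made. They stand among the 36135 genes of the deposited count table. They cover the path from origin to fork. These are the origin recognition complex, the MCM2-7 helicase with its loading and activating factors, the sliding clamp and its loader, the polymerases and primase, replication protein A, the flap and nick enzymes, and the chromatin assembly factor.

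LNCaP is a cell line from a human prostate carcinoma with a luminal, androgen-responsive character. Cells were transfected with a non-targeting siRNA (control) or with an siRNA against SULT2B1, a sulfotransferase that acts on cholesterol and other sterols (knockdown), and harvested 48 hours later. Dead cells and capture sites with more than 1 cell were excluded before lysis, and each cell was sequenced on its own. The 401 cells used came from 3 batches with both arms in each, 76, 66 and 67 control cells and 66, 65 and 61 knockdown cells. One cell line, 1 siRNA against the target and 1 control siRNA were used, so an effect of the siRNA sequence and an effect of the loss of SULT2B1 cannot be told apart. The labels do not say whether the batches were separate cultures, and p-values then measure only the spread between these libraries, which may be technical.

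In G1 the origin recognition complex, CDC6 and CDT1 load the MCM2-7 ring onto DNA at origins, while geminin (GMNN) blocks CDT1 once S phase has begun. CDC45 and the GINS complex then join the ring to make the active helicase, and polymerases, clamp and loader copy both strands behind it. Many of these genes are transcribed under E2F control as cells pass from G1 into S, so their summed level in a culture follows both how many cells are in S phase and how much RNA each cell holds. In the summed libraries used here, fewer cells with the RNA and less RNA per cell cannot be told apart, and the values per cell are given further on.

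Each arm and batch was treated as 1 library by adding up the reads of its cells, which made 3 control and 3 knockdown libraries of 71630108 to 84359044 reads. CPM below is the level of a gene relative to all reads of its library, as edgeR computes it with TMM scaling. Single cells held 169244 to 2353816 reads, with a median of 1150826. SULT2B1 stood at 2.07, 1.49 and 4.28 CPM in the control libraries of batches 1 to 3 and at 0.162, 0.284 and 0 CPM in the knockdown libraries. All knockdown libraries lay below all control libraries, but the gene did not pass the edgeR quasi-likelihood test (adjusted p = 0.268) and passed with DESeq2 (adjusted p = 0.0156). Luminal genes such as KLK3 were present in every library (239 to 1023 CPM). The 9 luminal genes summed to 5000, 5371 and 6046 CPM in control and 2662, 3988 and 3748 CPM in knockdown. Of these genes 2 were called lower by edgeR (0 with the batch block), against 0.384% of all genes tested. DESeq2 called 4 lower and 2 higher, against 4.31% and 3.63% of the genes it adjusted. The part of the luminal genes in the values below was not tested. The summed level of 10 marker genes of blood, stromal, endothelial, basal and neuroendocrine cells was 3.05 to 12.8 CPM, with the leukocyte gene PTPRC at 0 to 0.0233 CPM. Cells with over 20% mitochondrial reads numbered 21, 8 and 6 in control and 6, 0 and 2 in knockdown. Their part in the results was not tested beyond leaving them out, which left RFC3 as the only member called.

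The replication genes stood lower in knockdown cells as a group, while few passed the test one by one. Of the 47 members, 44 had a log2 fold change below 0 and 3 above, with a median of -0.73 against 0.01 for all 20326 genes tested, of which 49.6% lay below 0. Claspin, the helicase-activating genes GINS3, CDC45, GINS4 and MCM10, the loading regulator DTL and the clamp loader subunit RFC3 had the lowest values, -1.88 to -1.56, whereas the replication protein A subunits and most origin recognition subunits had values near 0. In the edgeR quasi-likelihood test with Benjamini-Hochberg adjustment, 1 member was called lower (RFC3) and 0 higher, where 0.384% of all genes tested were called lower and 0.394% higher. At an unadjusted p under 0.05 there were 27 members lower (57.4%) and 0 higher, against 7.08% and 6.4% of all genes. DESeq2 called 22 members lower (46.8%) and 0 higher, against 4.31% and 3.63% of the 18159 genes it adjusted. With the batch as a block, edgeR called 0 members, against 0.059% of genes lower and 0.128% higher, and RFC3 then had an adjusted p of 0.0844.

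The same picture was seen in the spread of the libraries. For 28 of 47 members (59.6%) all 3 knockdown libraries lay below all 3 control libraries, and for 0 members above, whereas 10.1% of all genes lay wholly below and 10.5% wholly above. The difference was unequal between batches. The median difference in log2(CPM + 1) over the members was -0.80 in batch 1, -0.94 in batch 2 and -0.27 in batch 3, with 43, 43 and 37 members below 0. In every batch 33 members were below 0, as were 18.2% of all genes tested. The 19 members that belong to the S phase gene list widely used in single-cell work had a median log2 fold change of -0.79, and the 28 members outside it -0.69, each with 14 members whose libraries did not overlap.

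**Figure D1:**
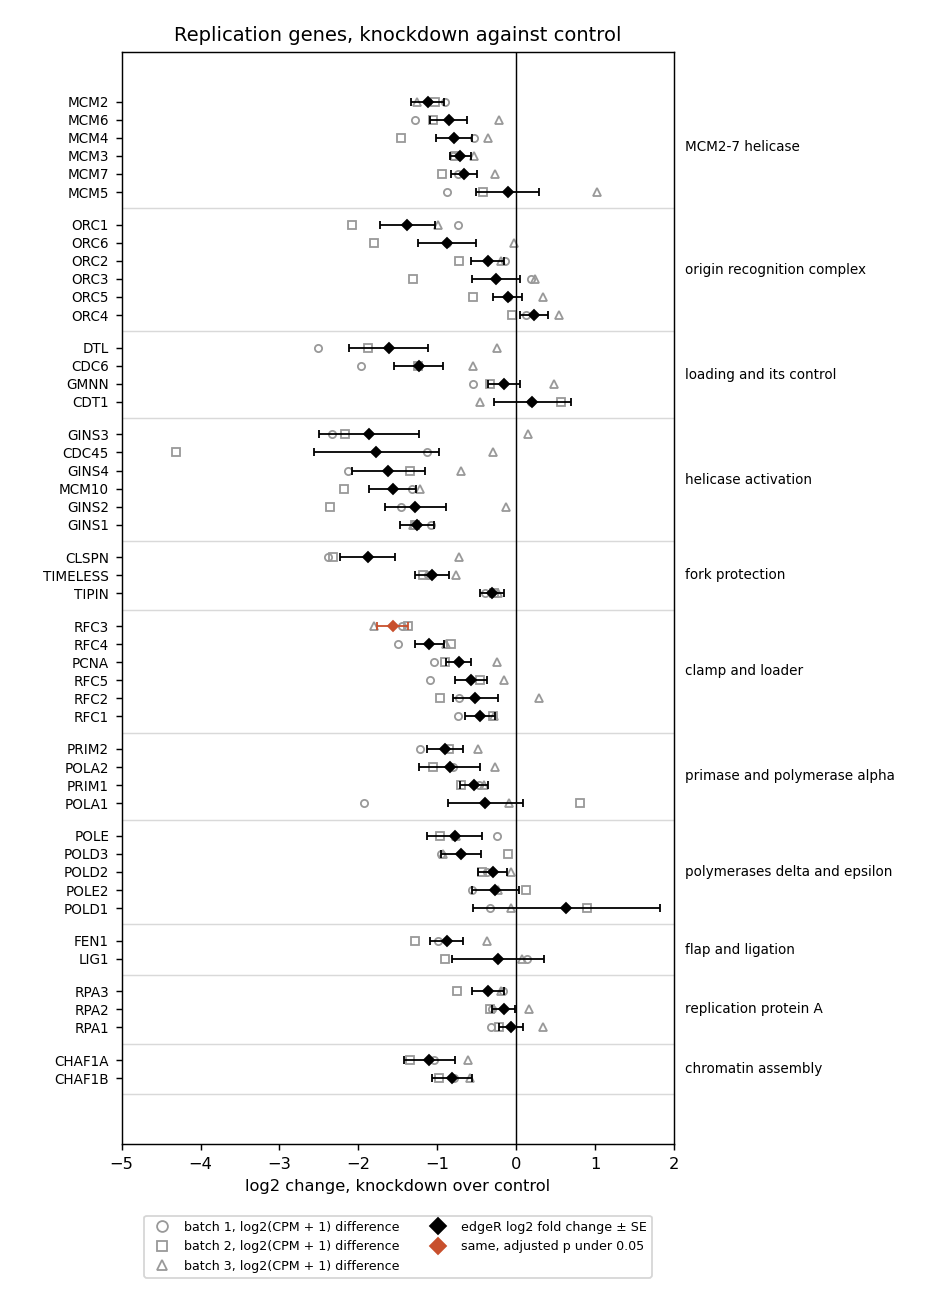
Log2 change of each of the 47 replication genes, knockdown over control, ordered by role. Diamonds with bars are the edgeR log2 fold change ± SE over 3 libraries per arm, and open circles, squares and triangles are the differences within batches 1, 2 and 3. Most diamonds lie left of 0, the only one past the adjusted threshold is RFC3 at -1.56, and many triangles of batch 3 lie nearest to 0.

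The promoters of 4 members are shown because they hold words that E2F factors bind. The promoter table of RefSeq (GRCh38.p14) matched 41 of the 47 members, and ORC4, GMNN, PRIM2, MCM7, TIPIN, POLD1, PCNA and CDC45 have several starts there, of which the first listed was used. MCM4, MCM5, GINS4, POLD3, RPA2 and RPA3 were not matched. The E2F words, 4 of 8 bases each, were searched on both strands in the 250 bases before the start, TTTCCCGC, TTTGGCGC, TTTCGCGC and TTTGCCGC. RFC3 and MCM3 were the only genes with a word among the 6 matched members of smallest p, and MCM6 and PCNA were added after their words had been seen. The sequences run 5′ to 3′ along the strand of the gene, end 1 base before the start, and carry the words, or their reverse complements, in capitals. RFC3 lies at chr13:33817899-33818148 on the plus strand, MCM3 at chr6:52284743-52284992 on the minus strand, MCM6 at chr2:135876444-135876693 on the minus strand and PCNA at chr20:5126623-5126872 on the minus strand.
RFC3: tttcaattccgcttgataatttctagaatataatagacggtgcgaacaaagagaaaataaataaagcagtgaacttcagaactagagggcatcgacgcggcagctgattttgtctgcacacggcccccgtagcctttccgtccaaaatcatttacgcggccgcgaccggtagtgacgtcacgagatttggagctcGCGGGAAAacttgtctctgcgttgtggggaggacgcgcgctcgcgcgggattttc
MCM3: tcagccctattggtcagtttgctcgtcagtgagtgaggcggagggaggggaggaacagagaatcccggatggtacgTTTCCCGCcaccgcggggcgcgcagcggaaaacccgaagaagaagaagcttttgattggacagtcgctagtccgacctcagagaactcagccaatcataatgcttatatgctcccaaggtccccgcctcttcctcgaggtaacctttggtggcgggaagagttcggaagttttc
MCM6: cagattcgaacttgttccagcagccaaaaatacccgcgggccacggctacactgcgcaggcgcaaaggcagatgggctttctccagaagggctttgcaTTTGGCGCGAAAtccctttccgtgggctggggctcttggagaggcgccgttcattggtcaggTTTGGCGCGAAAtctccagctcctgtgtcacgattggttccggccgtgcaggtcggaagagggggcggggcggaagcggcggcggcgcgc
PCNA: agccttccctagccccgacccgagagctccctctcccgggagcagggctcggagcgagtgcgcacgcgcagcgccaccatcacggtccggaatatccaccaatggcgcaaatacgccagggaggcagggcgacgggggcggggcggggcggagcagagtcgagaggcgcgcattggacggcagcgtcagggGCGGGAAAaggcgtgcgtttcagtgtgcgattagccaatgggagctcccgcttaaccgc
In RFC3 the word began 55 bases before the start and in PCNA 59 bases before it, and both are the reverse complement of TTTCCCGC. MCM3 held TTTCCCGC itself, 174 bases before its start. The 4 matches in MCM6 form a pair of 12-base runs in which a word on one strand overlaps a word on the other, at 152 and 148 and at 90 and 86 bases before the start. At least 1 E2F word was found in 13 of the 41 member promoters (31.7%) and in 979 of all 35116 promoters in the table (2.79%). Each member counted once, whereas the 35116 promoters include 7811 further entries of genes already listed. The base composition differed between these sets, with 64.5% G and C in the members' promoters and 57.2% in all. The share was 33.3% for members of the S phase list and 30.8% for the others. CCAAT, the word of NF-Y, was found on either strand in 25 of 41 member promoters (61.0%) and in 32.0% of all, and TTTGAA, the core of the CHR element of G2 genes, in 0 of 41 and in 13.3% of all. GINS1, RFC4, MCM2 and CLSPN, which were also among the members of smallest p, held no E2F word, and a match or its lack says nothing here about binding.

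RFC3 (ENSG00000133119, on chromosome 13) is a subunit of replication factor C, the ATP-driven loader that opens the PCNA ring and places it on primed DNA. Its level was 72, 70.2 and 66.6 CPM in the control libraries and 25.8, 26.5 and 18.4 CPM in the knockdown libraries. The 3 control values lay within a narrow band, and the highest knockdown value was well under the lowest of them. RFC3 fell by 1.56 on the log2 scale (SE 0.197, edgeR quasi-likelihood test with Benjamini-Hochberg adjustment, adjusted p = 0.0184). Leaving out any 1 of the 6 libraries moved the adjusted p to between 0.0581 and 0.0895, with log2 values of -1.66 to -1.41. Reads of RFC3 were found in 61.8%, 72.7% and 55.2% of control cells and in 47%, 47.7% and 54.1% of knockdown cells. The exact 95% intervals of the nearest pair, control and knockdown of batch 3, were 42.6% to 67.4% and 40.8% to 66.9%, so the shares did not overlap between arms but lay within counting error of each other in that batch. These intervals cover counting error only.

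The other loader subunits and the clamp lay on the same side with smaller differences. RFC4 stood at 90, 67.0 and 67.1 CPM in control and at 31.2, 37.4 and 35.8 CPM in knockdown (log2 fold change -1.10, SE 0.186, edgeR adjusted p = 0.0535). The arms did not overlap. In edgeR the adjusted p was 0.0411 when every cell was given equal weight and 0.0233 without the filter on low counts. It was 0.182 with the batch block, 0.0843 without cells over the mitochondrial limit, and 0.122 to 0.178 with single libraries left out. RFC4 overlaps the abundant gene EIF4A2 on the opposite strand, and the strand setting of the counting is not given in the sources used here, so reads of the pair may have been mixed. Reads of other overlapping pairs may have been mixed as well. Among these are RFC5 with WSB2, GINS2 with GSE1 and ORC4 with ACVR2A on opposite strands, and CHAF1B with MORC3 on the same strand. PCNA, the ring that tethers polymerases to DNA, had the highest level of the members per kilobase of exon in control libraries (203 CPM per kilobase). It stood at 324, 318 and 252 CPM in control and at 157, 170 and 213 CPM in knockdown (log2 fold change -0.73, SE 0.159, edgeR adjusted p = 0.105). The knockdown library of batch 3 was the nearest to the controls. RFC5 also had separated arms (-0.57), while RFC1 (-0.46) and RFC2 (-0.52) overlapped. PCNA, RFC3 and RFC4 were called lower by DESeq2.

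**Figure D2:**
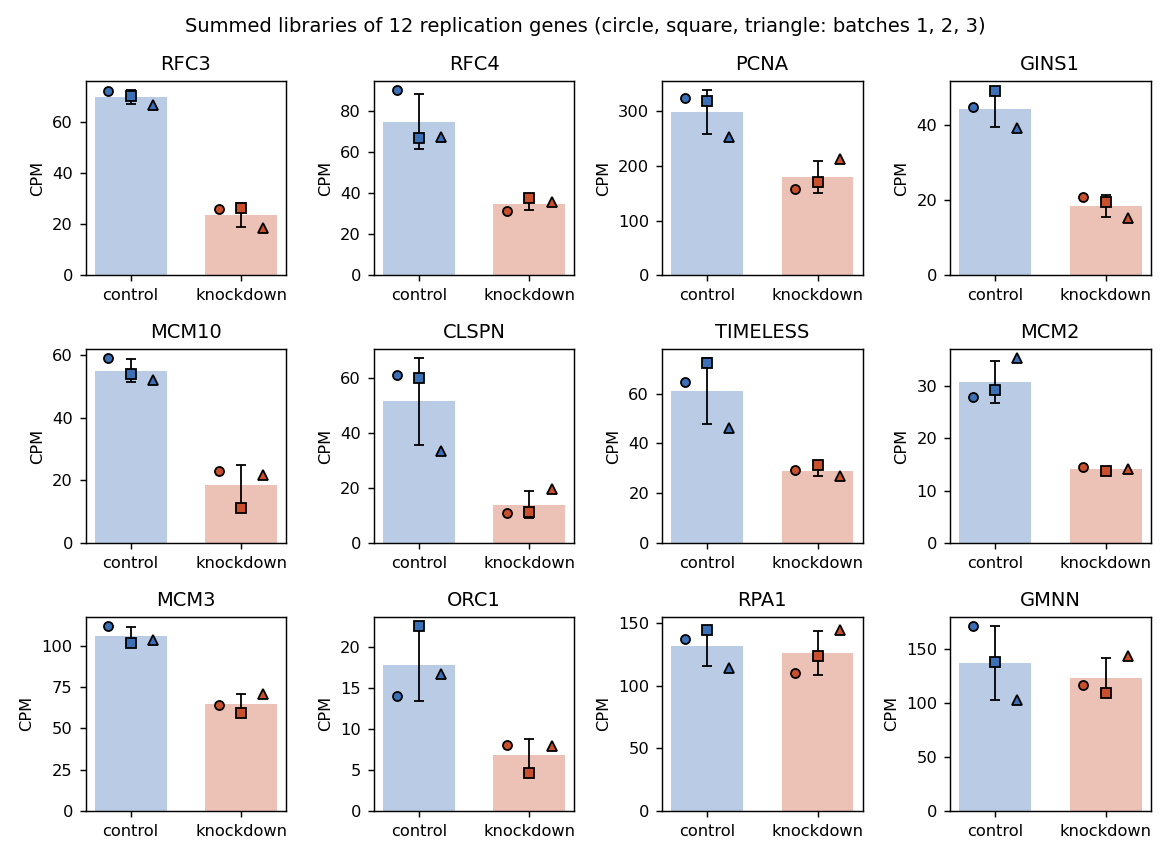
Level of 12 replication genes in the summed libraries in CPM. Bars are arm means with SD over 3 libraries, and circles, squares and triangles are batches 1, 2 and 3. RFC3, RFC4, PCNA, GINS1, MCM10, CLSPN, TIMELESS, MCM2, MCM3 and ORC1 have separated arms, while the arms of RPA1 and GMNN overlap.

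The MCM2-7 ring, the motor of the replicative helicase, had 6 of 6 subunits below 0 with a median log2 fold change of -0.75, and 5 of 6 with separated arms. MCM2 was measured at 27.8, 29.2 and 35.3 CPM in control and at 14.5, 13.7 and 14.2 CPM in knockdown. The summed knockdown values of MCM2 hardly differed from each other, and the log2 fold change was -1.12 (SE 0.211, edgeR adjusted p = 0.0714). For MCM2 the largest share of 1 cell was 21.8%, 45.0% and 21.0% in the knockdown libraries, against 11.1%, 11.3% and 16.9% in control. MCM7, the subunit of highest CPM, stood at 135, 165 and 116 CPM in control and at 80.9, 85.4 and 96.3 CPM in knockdown (-0.67, SE 0.164, edgeR adjusted p = 0.134). MCM3 had the narrowest error of the ring, 106 ± 5.54 CPM in control and 64.7 ± 5.90 CPM in knockdown (SD, n = 3), with a log2 fold change of -0.71 and an edgeR adjusted p of 0.0747. MCM4 (-0.79) and MCM6 (-0.85) lay between them. MCM5 was the exception, with 18.2, 15.2 and 8.58 CPM in control and 9.40, 11.1 and 18.4 CPM in knockdown. Its batch 3 libraries ran against those of batches 1 and 2, its arms overlapped, and its log2 fold change of -0.11 turned positive without control batch 1 (0.12) and without knockdown batch 1 (0.08). None of the 6 was called by edgeR, and DESeq2 called the 5 with separated arms.

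The origin recognition complex, which marks origins, split by subunit. ORC1, the subunit whose abundance cycles with the cell cycle in human cells, had separated arms at 14.1, 22.6 and 16.7 CPM in control and 8.02, 4.58 and 7.92 CPM in knockdown (log2 fold change -1.38, SE 0.346, edgeR adjusted p = 0.138). It was the only subunit that DESeq2 called (adjusted p = 0.00421). A single cell held 51.0% of the ORC1 reads in the knockdown library of batch 2. ORC6 stood at 104, 87.4 and 54.4 CPM against 56.1, 24.3 and 53.4 CPM, and its value of -0.88 came with overlap between control batch 3 and knockdown batch 1. The core subunits had values nearer to 0, with -0.36 for ORC2, -0.26 for ORC3 and -0.11 for ORC5. ORC4, the subunit of highest CPM, was measured at 189, 154 and 158 CPM in control and 206, 149 and 232 CPM in knockdown, with a log2 fold change of 0.23 (SE 0.182, edgeR adjusted p = 0.687) and overlapping arms. The difference between ORC1 and the core subunits was not tested.

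Among the loading factors, CDC6, the ATPase that brings MCM2-7 to the origin with CDT1, was at 91.2, 59.6 and 65.6 CPM in control and at 22.6, 24.7 and 44.6 CPM in knockdown. The arms were separated and the log2 fold change was -1.24 (SE 0.312, edgeR adjusted p = 0.139). DTL, the substrate receptor of the ubiquitin ligase that removes CDT1 in S phase, was at 73.4, 34.1 and 28.0 CPM against 12.1, 8.55 and 23.5 CPM (-1.62, SE 0.50, edgeR adjusted p = 0.212). Both were called by DESeq2. GMNN, the inhibitor of CDT1, had overlapping arms at 171, 138 and 103 CPM against 117, 110 and 144 CPM (-0.15). CDT1 itself was rare, at 3.22 ± 0.0295 CPM in control and 3.72 ± 1.60 CPM in knockdown (SD, n = 3). A single cell held 58.5% of its reads in the knockdown library of batch 2. The log2 fold change of CDT1, 0.21, was -0.12 without that library. In 6 members a single cell held over 50% of the reads of some library, ORC1, GINS3, GINS4, POLD1 and LIG1 besides CDT1. CDT1 was nevertheless detected in fewer knockdown cells, 30.3%, 16.9% and 24.6% against 38.2%, 36.4% and 38.8%.

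The genes that turn the loaded ring into a working helicase had the lowest median of all roles, -1.59, and 5 of 6 had separated arms. GINS1 was at 44.7, 48.9 and 39.1 CPM in control and at 20.7, 19.6 and 15.1 CPM in knockdown (log2 fold change -1.26, SE 0.215, edgeR adjusted p = 0.0533). Its detection share also separated the arms, 48.7%, 66.7% and 52.2% against 34.8%, 30.8% and 29.5%. GINS2, the GINS subunit of highest CPM, was at 81.2, 87.8 and 48.6 CPM against 29, 16.3 and 44.5 CPM (-1.28, SE 0.392, edgeR adjusted p = 0.209), so batch 3 showed little difference. MCM10, which acts when the helicase starts to move, was at 59.0, 53.9 and 51.9 CPM in control and at 22.9, 11.1 and 21.6 CPM in knockdown (-1.57, SE 0.296, edgeR adjusted p = 0.0749). GINS3 (-1.86), GINS4 (-1.62) and CDC45 (-1.77) had SEs of 0.459 to 0.789. CDC45 ranged from 1.24 to 12.3 CPM within the knockdown arm, and GINS3 overlapped between arms in batch 3 (5.10 CPM in control and 5.74 in knockdown). Single cells held 57.1% and 54.9% of the GINS3 reads in knockdown batches 1 and 2, and 52.0% of the GINS4 reads in knockdown batch 2. For MCM10 the largest share of 1 cell was 42.9%, 41.8% and 46.6% in the knockdown libraries, against 17.2%, 16.2% and 14.6% in control. DESeq2 called MCM10 and the 4 GINS genes lower, and CDC45 had an adjusted p of 0.0921 there.

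The fork protection genes had separated arms in 3 of 3. Claspin (CLSPN), which links the fork to the checkpoint kinase CHK1, was at 61.0, 60.1 and 33.3 CPM in control and at 10.9, 11.3 and 19.7 CPM in knockdown. Its log2 fold change of -1.88 was the lowest of the 47 (SE 0.350, edgeR adjusted p = 0.0714). TIMELESS, whose protein travels with the fork together with that of TIPIN, was at 64.5, 72.1 and 46.2 CPM against 29.2, 31.3 and 26.9 CPM (-1.07, SE 0.211, edgeR adjusted p = 0.0815). Its partner TIPIN, the gene of highest CPM here, differed by less, 78.1, 65.9 and 76.8 CPM against 59.4, 54.0 and 65.4 CPM (-0.30, SE 0.155, edgeR adjusted p = 0.467). The gap between the arms of TIPIN was small, with 65.9 CPM the lowest control and 65.4 CPM the highest knockdown value. Without the filter on low counts, edgeR called 6 members lower, RFC3 with MCM10, GINS1, CLSPN, TIMELESS and RFC4, and 0 higher. In that fit 0.494% of 35831 genes were called lower and 0.368% higher.

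Primase and polymerase alpha lay below 0 in 4 of 4 genes with a median of -0.69. PRIM2, the large primase subunit, was at 36.0, 31.6 and 24.0 CPM in control and at 14.9, 17.1 and 16.9 CPM in knockdown (log2 fold change -0.90, SE 0.234, edgeR adjusted p = 0.146). PRIM1, the catalytic subunit, was at 65.4, 61.6 and 53.3 CPM against 47.1, 37.6 and 39.8 CPM (-0.53, SE 0.174, edgeR adjusted p = 0.234), and it overlaps the abundant gene NACA on the same strand. Both genes had separated arms, as had POLA2 (-0.84). POLA1, the catalytic subunit of polymerase alpha, overlapped, at 39.5, 15.6 and 24.7 CPM against 9.62, 28.1 and 23.2 CPM.

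The polymerases that extend the strands differed less. POLD3, a subunit of polymerase delta, was at 38.2, 24.5 and 31.8 CPM in control and at 19.2, 22.6 and 16.3 CPM in knockdown (log2 fold change -0.70, SE 0.252, edgeR adjusted p = 0.286). POLD2, the delta subunit of highest CPM, was at 154, 216 and 164 CPM against 119, 159 and 156 CPM, with overlap (-0.30, SE 0.181). POLE, the catalytic subunit of polymerase epsilon, had separated arms at 9.0 ± 2.30 and 5.24 ± 0.385 CPM (SD, n = 3; -0.78), and POLE2 overlapped (-0.26). POLD1 was barely detected, with 0.442 ± 0.333 CPM in control and 0.688 ± 0.709 CPM in knockdown, and 98.2% of its reads in knockdown batch 2 came from 1 cell. Its log2 fold change of 0.64 (SE 1.19) was -0.61 without that library, so no direction can be read.

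FEN1, the nuclease that trims the flaps between Okazaki fragments, was at 66.0, 70.2 and 57.4 CPM in control and at 32.7, 28.3 and 44.1 CPM in knockdown (log2 fold change -0.88, SE 0.212, edgeR adjusted p = 0.127). Its arms were separated, though it overlaps TMEM258 on the opposite strand and FADS2 on the same strand. LIG1, the ligase that seals the nicks, was at 4.10 ± 1.52 CPM and 3.50 ± 2.11 CPM (SD, n = 3), with overlap. A single cell held 62.3% of the LIG1 reads in the knockdown library of batch 3. CHAF1A and CHAF1B, subunits of the chromatin assembly factor, which places histones behind the fork, both had separated arms. CHAF1A was at 10.8, 13.2 and 11.6 CPM against 4.71, 4.59 and 7.28 CPM (-1.10, SE 0.328, edgeR adjusted p = 0.194). CHAF1B was at 26.1, 22.1 and 24.9 CPM against 14.6, 10.7 and 16.3 CPM (-0.81, SE 0.249, edgeR adjusted p = 0.204).

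Replication protein A, which coats single-stranded DNA at forks and also serves repair, had 0 of 3 subunits with separated CPM and a median log2 fold change of -0.16. RPA2 was at 151, 133 and 114 CPM in control and at 122, 106 and 128 CPM in knockdown (SE 0.149, edgeR adjusted p = 0.746). RPA3 was at 114, 104 and 90.8 CPM against 101, 61.4 and 79.1 CPM (-0.35, SE 0.203, edgeR adjusted p = 0.534). RPA1 was at 132 ± 16.0 and 126 ± 17.3 CPM (SD, n = 3; -0.06). In each of the 3 genes the range within the knockdown arm was wider than the difference between the arm means.

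The share of cells with a read was lower in knockdown for 37 of 47 members, with a median difference of -8.44 percentage points. All 3 knockdown shares lay below all 3 control shares for 12 members (25.5%) and above for 1, RPA3, against 5.85% and 15.3% of all genes tested. The 12 were MCM2, MCM3, MCM4, ORC1, CDC6, CDT1, GINS1, GINS3, GINS4, RFC3, LIG1 and CHAF1A. For such a gene the exact two-sided permutation test over the 6 shares gives p = 0.1, the smallest that 3 against 3 allow. MCM2 had the widest difference, with reads in 55.3%, 69.7% and 62.7% of control cells and in 42.4%, 26.2% and 39.3% of knockdown cells (-26.6 points). The batches differed again, with median differences of -7.10, -17.8 and -0.147 points in batches 1, 2 and 3, and 34, 42 and 24 members lower. Without batch 2 the median difference was -5.12 points, and without batch 3 it was -12.4 points. Leaving out the cells with over 20% mitochondrial reads, most of them control cells, gave -13.1 points. It left 16 members separated below control and 0 above, and the shares over all genes moved to 9.93% and 9.49%.

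Detection depends on depth and on single reads, so shares were also taken at equal depth and at a higher limit. With every cell thinned to 100000 reads, which left out no cell, 37 members again had the lower share in knockdown and the median difference was -9.49 points. Shares were then separated below control for 21 members and above for 1, RPA2, against 6.29% and 13% of all genes tested. At 5 or more reads 38 members were lower (median difference -8.72 points). At that limit 17 were separated below control and 1, RPA2, above, against 5.51% and 14.9% of all genes. Among those separated at 1 read and full depth, ORC1, CDT1 and LIG1 overlapped after thinning and at 5 or more reads. MCM4 overlapped at 5 or more reads. The knockdown library of batch 2 held many cells with very few reads of some genes. DTL had a read in 55.4% of its cells but 5 or more reads in 12.3%, MCM10 in 44.6% and 10.8%, and CLSPN in 49.2% and 12.3%. In control batch 2 the same limits gave 34.8% and 25.8% for DTL, 59.1% and 39.4% for MCM10, and 63.6% and 54.5% for CLSPN. The 11 members found in over 80% of control cells differed by -16.5 to 7.15 points, and 4 of them were lower.

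**Figure D3:**
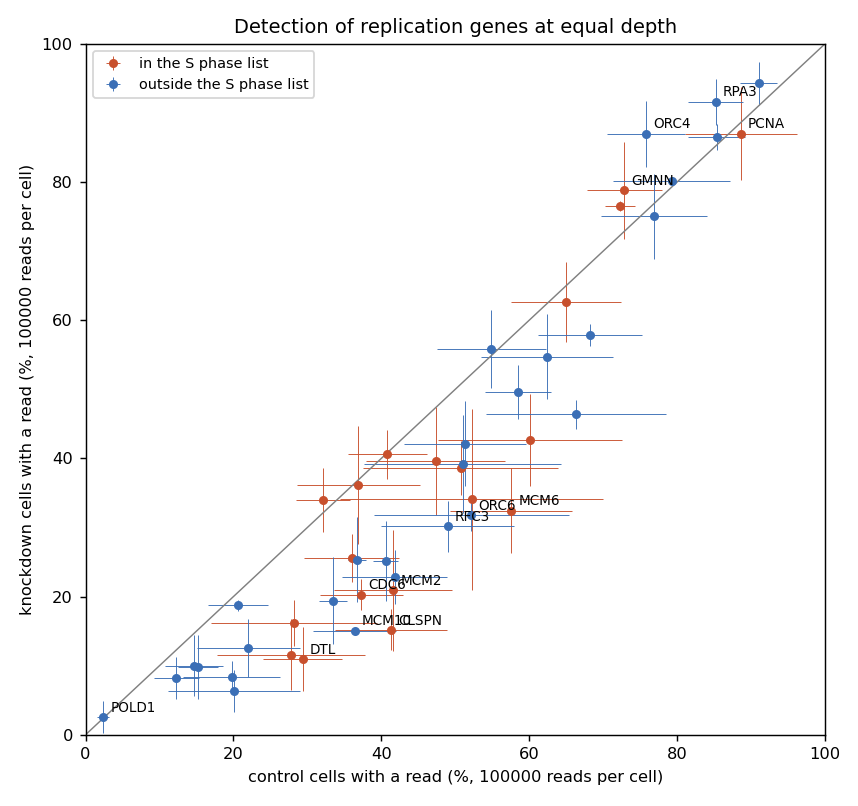
Share of cells with a read of each replication gene after thinning every cell to 100000 reads, control on the horizontal and knockdown on the vertical axis, in percent. Points are means of 3 batches with SD bars, the line marks equal shares, and 37 of 47 points lie below it.

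Level and detection were then described side by side. They are not independent, since cells with very few reads raise the share and can lower the median in cells with a read. In knockdown batch 2 that median was 1.88 CPM for DTL, 1.27 CPM for MCM10 and 2.53 CPM for CLSPN. Averaged over all cells of a library as log2(CPM + 1), 42 members were lower in knockdown. The arms of 26 were separated below control and those of 1, RPA2, above, against 8.09% and 15.9% of all genes tested. In cells that held a read, the median CPM was lower in knockdown for 36 members. It was separated for 11 below and for 1, CDT1, above, against 7.58% and 8.11% of the 17723 genes with a read in every library. For 28 members both the share and the level in cells with a read were lower. The median log2 ratio was -0.29 for the share and -0.53 for that level. RFC3 had a median of 41.6, 52.5 and 57.4 CPM in control cells with a read and of 27.2, 5.09 and 7.2 CPM in knockdown cells with a read. Claspin had 94.2, 38.4 and 33.6 CPM against 6.79, 2.53 and 3.37 CPM. CDC6 was among the members that went another way, with a lower share but 15.6, 65.2 and 162 CPM in control cells with a read against 6.70, 86.2 and 158 CPM, values that overlapped widely. Its log2 ratio for the level in cells with a read was 0.04. With lower shares too, DTL, CDT1, LIG1 and POLA2 had larger ratios for that level, 1.06, 0.71, 0.45 and 0.39.

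**Figure D4:**
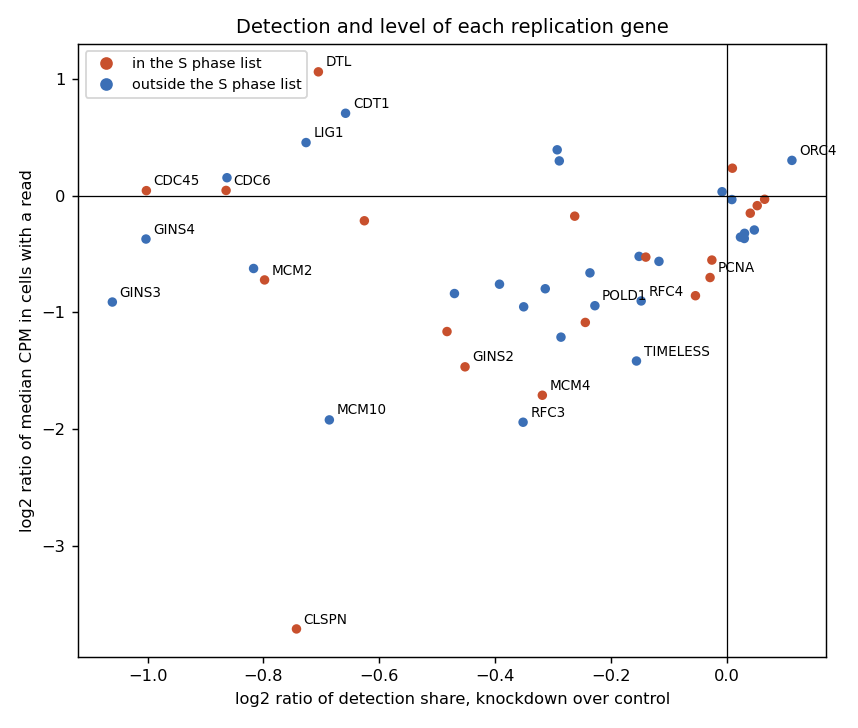
Each point is a replication gene. The horizontal axis gives the log2 ratio of its share of cells with a read and the vertical axis that of its median CPM in cells with a read, knockdown over control, as arm means of 3 batches. The 28 genes below and left of both 0 lines had both lower, and CLSPN lies lowest at -3.71.

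Counted per cell at 100000 reads, the number of members detected was spread over a wide range. The arms differed mainly in the upper part of that range. The lower quartile of members detected per cell was 12, 16.25 and 13 in control and 12.25, 13 and 14 in knockdown. The upper quartile was 33.25, 33 and 28 in control and 20.75, 18 and 20 in knockdown, with no overlap. The medians were 18, 24.5 and 16 against 16, 17 and 17. Cells with 25 or more of the 47 members, a limit set after seeing the distribution, made up 39.5%, 50% and 28.4% of control cells and 18.2%, 12.3% and 18% of knockdown cells. The means were 39.3% ± 10.8 and 16.2% ± 3.35 (SD, n = 3), given as a description only. Of the 401 cells, 34 lay within 2 members of the limit. The summed level of the members had medians of 1925, 2936 and 1675 CPM per cell in control and 1633, 1632 and 1767 CPM in knockdown. Its 90th percentile was 7160, 6475 and 6605 CPM against 3531, 3388 and 5560 CPM, so the arms overlapped at the median and not at the 90th percentile.

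**Figure D5:**
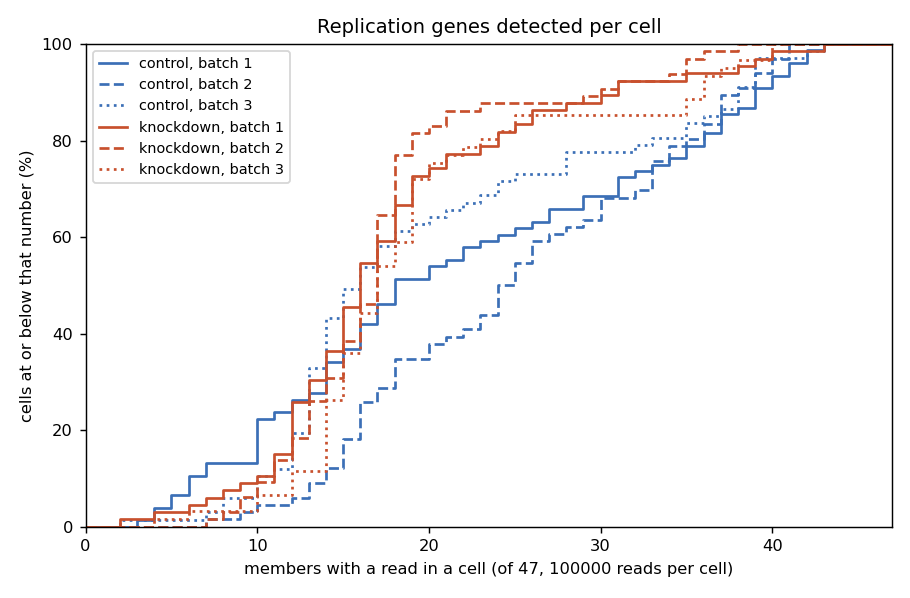
Cumulative share of cells, in percent, against the number of the 47 replication genes with a read at 100000 reads per cell. Blue lines are control, red lines knockdown, and line styles are batches. The lower quartiles of control and knockdown are 12 and 12.25 genes in batch 1, 16.25 and 13 in batch 2, and 13 and 14 in batch 3. In batch 3 the control median of 16 also lies under the knockdown median of 17. The knockdown lines reach their upper quartile at 18 to 20.75 genes and the control lines at 28 to 33.25.

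Members were detected together in the same cells to unequal degrees. Across cells, after thinning and averaged over the 6 libraries, the highest Spearman correlations were 0.69 for CDC6 with MCM10, 0.63 for MCM10 with CLSPN and 0.62 for ORC6 with MCM10. These are descriptions over cells of the same libraries, which share depth and handling. The median was 0.34 for the 171 pairs within the S phase list, 0.17 for the 378 pairs outside it and 0.23 over all 1081 pairs. The number of S phase list members detected per cell had correlations of 0.75 to 0.90 with the number of the other members in control libraries and of 0.54 to 0.70 in knockdown libraries.

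Genes around the replication machinery, from lists of related genes, gave the following counts. Of 38 other replication genes, 30 lay below 0 (median log2 fold change -0.61). In edgeR 2 were called lower (5.26%) and 0 higher, against 0.384% and 0.394% of all genes tested. Neither call held with the batch block. SUPT16H, a subunit of the histone chaperone FACT, was at 214, 191 and 155 CPM in control and at 90.3, 71.8 and 84.5 CPM in knockdown, and it fell by 1.19 on the log2 scale (SE 0.163, edgeR adjusted p = 0.0257, 0.102 with the block). WDHD1, which ties polymerase alpha to the helicase, was at 90.1, 88.8 and 61.4 CPM against 34.0, 26.7 and 28.7 CPM, and it fell by 1.43 (SE 0.210, edgeR adjusted p = 0.0353, 0.117 with the block). Of 20 genes of G1 to S control, 17 lay below 0 (median -0.71), with 10 lower and 2 higher at an unadjusted p under 0.05, and DESeq2 called 4 lower and 1 higher. The 1 gene called by edgeR was CDKN1A, the inhibitor of cyclin-dependent kinases. It rose from 46.8, 43.4 and 49.4 CPM to 168, 139 and 143 CPM (log2 fold change 1.69, SE 0.139, edgeR adjusted p = 0.00391, 0.0388 with the block).

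The G2 and M genes, which mark cells past S phase, lay below 0 in 18 of 18 with a median of -1.33. None was called by edgeR. At an unadjusted edgeR p under 0.05, 13 were lower (72.2%), against 7.08% of all genes tested. DESeq2 called 10 lower (55.6%), against 4.31% of the genes it adjusted. NUSAP1, a spindle protein, was at 304, 495 and 248 CPM in control and at 144, 62.5 and 89.6 CPM in knockdown (edgeR adjusted p = 0.0836). MKI67, the proliferation marker, was at 122, 131 and 77.7 CPM against 48.8, 16.1 and 28.4 CPM (edgeR adjusted p = 0.108). Per cell, the number of S phase list members detected had Spearman correlations of 0.70 to 0.73 with the number of G2 and M genes in control libraries and of 0.39 to 0.48 in knockdown libraries. The part of these genes, and of the share of cycling cells, in the values of the replication genes was not tested.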

How the data were processed

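The deposited values are raw counts, the reads assigned to a gene in a cell, with no scaling and no molecular identifiers. The submitters' processing notes name TopHat2 2.1.0, HTSeq 0.6.1, edgeR 3.2.2 and FastQC 0.11.3, and the build GRCh38.p3. For the annotation and the strand setting the sources used here give nothing. Doublets were handled by the authors' inspection under the microscope, per the labels' protocols, and no doublet caller was run.

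Of 414 samples, 401 single cells with a matching column were used. Left out were 4 labelled cells without a column, 6 libraries of several cells, 2 first runs of cells sequenced again and 1 repeat library of unstated cells. 4 columns of values were not used. Genes were named from the gene name table and GENCODE 29, which also gave exon lengths and overlaps.

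Counts were summed per arm and batch, since cells are not replicates. In R 4.3.3 with limma 3.58.1, edgeR 4.0.16 gave the main test, its quasi-likelihood test (robust, TMM, filterByExpr, no covariates) with Benjamini-Hochberg adjustment over 20326 genes at a threshold of 0.05, and CPM are its TMM-scaled values. All 47 members passed the filter. DESeq2 1.42.0, other scalings, no filter, equal weight per cell, leaving out cells over 20% mitochondrial reads and leaving out each library were tried. Thinning drew 100000 reads per cell without replacement.

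The labels' word for the shared number is batch, which pairs the libraries of the arms. Same-numbered libraries deviated together with correlations of 0.078, 0.00055 and 0.00023. The block is given beside a result where it changed a call.

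The members and lists were chosen with earlier results of these data known, so no list was tested and no p-value was adjusted over a list. In full were named the members past the threshold and, in each role, the members of smallest p and of highest CPM, with the called genes of the other lists, or the 2 of smallest p where none was called. Other members were named to complete a role after their values were seen.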

Additional observations from a re-analysis of the deposited data

How the results depend on the processing

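The median log2 fold change of the members kept its sign in every alternative run, from -0.80 to -0.66 when each library was left out in turn. The count of members called lower did not keep: it was 22 with DESeq2, 6 without the filter on low counts, 2 with equal weight per cell, 0 with the replicate block and 0 when any 1 library was left out, against 1 as reported. The count of other replication genes called lower was 12 with DESeq2, 4 without the filter, 1 without cells over the mitochondrial limit, 0 with the replicate block and 0 to 2 with 1 library left out, against 2. Of all genes, 4.31% were called lower with DESeq2, 0.494% without the filter, 0.059% with the block and 0.384% in the main fit. No share over all genes was taken for the other settings, so their counts have no such comparison. With the batch as a replicate block no other member changed its call. The cause of these moves was not tested, beyond the smaller number of libraries where 1 was left out.

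Signs turned for members with values near 0 or few reads. Leaving out 1 library at a time, the log2 fold change ran from -0.45 to 0.12 for MCM5, from -0.25 to 0.063 for ORC5, from -0.12 to 0.50 for CDT1, from -0.33 to 0.027 for GMNN and from -0.70 to 0.0010 for POLA1. It ran from -0.61 to 1.42 for POLD1, from -0.41 to 0.026 for POLE2, from -0.84 to 0.048 for LIG1 and from -0.17 to 0.023 for RPA1. With equal weight per cell CDT1 had -0.10. With 3 libraries per arm and few reads, as for POLD1, no direction could be read.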
